A study of Homo sapiens with 9 samples.

Results

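The 10 genes described here are the Notch receptors NOTCH1, NOTCH2 and NOTCH3, the ligands JAG1 and JAG2, the glycosyltransferase LFNG, the DNA-binding factor RBPJ, and the transcriptional repressors HES1, HEYL and HEY1. They were chosen by name, with earlier results of these data known, and all 10 were found among the 27671 genes of the count table. The cells were A498, a human clear cell renal cell carcinoma (ccRCC) line, and the design asked how much the bHLH-PAS proteins ARNT and BMAL1, each a possible partner of HIF2α, contribute to transcription in such cells. There were 3 groups of 3 biological replicates by the labels, each measured once by mRNA sequencing. Cells of the shControl group carried a control hairpin, those of the shBMAL1 group a hairpin against BMAL1 (listed as ARNTL), and those of the shARNT group a hairpin against ARNT. Every group, shControl included, had been infected with a pLKO.1 lentivirus, selected in puromycin at 2.5 µg/mL and then kept at 1.25 µg/mL. The genotype was otherwise that of the parental line, labelled WT. Each depletion rested on 1 hairpin in 1 line, so an effect of the target cannot be told apart from an effect of that hairpin. Whether replicates came from separate infections was not stated, and the p-values measure the spread between these libraries.

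Notch receptors are membrane proteins that are activated by ligands of the Jagged and Delta families on a neighbouring cell. Ligand binding exposes the receptor to cleavage by ADAM proteases and then by γ-secretase, and the freed intracellular domain enters the nucleus, where it binds RBPJ and a Mastermind coactivator and raises transcription of HES and HEY genes, themselves bHLH repressors. Fringe enzymes such as LFNG extend sugars on the receptor and change its response to Jagged and Delta ligands, and in the kidney the pathway is known for its part in nephron patterning.

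The promoters of HES1, HEYL and JAG1 are shown because HES1 and HEYL are targets of Notch that fell in both depletions, as did JAG1, whose window holds both forms of the hypoxia response core. Sequences are the 250 bases before the RefSeq start on GRCh38.p14, read 5′ to 3′ on the strand of the gene. Of the members, 9 had an entry in that table. In HES1 (chr3:194135898-194136147, plus strand) and HEYL (chr1:39639644-39639893, minus strand) capitals mark TGGGAA, the core that RBPJ recognises, on either strand. In JAG1 (chr20:10674000-10674249, minus strand) capitals mark ACGTG and GCGTG, the cores of hypoxia response elements bound by HIF-ARNT dimers, on either strand.
HES1: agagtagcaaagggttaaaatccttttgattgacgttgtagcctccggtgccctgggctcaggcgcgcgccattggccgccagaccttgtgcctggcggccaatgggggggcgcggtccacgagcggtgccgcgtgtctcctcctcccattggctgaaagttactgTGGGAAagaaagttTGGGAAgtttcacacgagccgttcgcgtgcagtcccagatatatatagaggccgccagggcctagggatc
HEYL: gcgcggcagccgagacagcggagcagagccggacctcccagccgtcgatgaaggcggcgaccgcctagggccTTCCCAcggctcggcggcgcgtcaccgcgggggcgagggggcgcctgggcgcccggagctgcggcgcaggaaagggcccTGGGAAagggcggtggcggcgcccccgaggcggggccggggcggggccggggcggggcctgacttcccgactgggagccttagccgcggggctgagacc
JAG1: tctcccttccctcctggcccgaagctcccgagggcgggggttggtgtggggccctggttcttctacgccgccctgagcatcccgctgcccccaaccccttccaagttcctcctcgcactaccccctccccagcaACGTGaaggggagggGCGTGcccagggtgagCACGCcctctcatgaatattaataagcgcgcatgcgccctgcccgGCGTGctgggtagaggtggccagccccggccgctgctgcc

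The HES1 window held TGGGAA at positions -84 to -79 and -70 to -65, counted back from the base before the start, both on the strand of the gene. The HEYL window also held 2 copies, at -178 to -173 on the opposite strand and at -99 to -94 on the strand of the gene. Of 35116 promoter windows of the same length, 20.8% held TGGGAA at least once and 2.9% at least 2 times. The JAG1 window held ACGTG at -116 to -112 and GCGTG at -101 to -97, -85 to -81 (opposite strand) and -40 to -36. Of all windows, 18.5% held ACGTG and 32.2% held GCGTG at least once. How many windows held several copies was counted only for TGGGAA. HES1 also held GCGTG at -119 to -115 and -46 to -42, which is not capitalised above. GCGTG was not particular to genes that fell in shARNT. It was also present in the windows of NOTCH1 (2 copies), NOTCH3, JAG2 and LFNG, which were called higher there. In shBMAL1, however, NOTCH1, JAG2 and LFNG were called lower (log2 fold changes -0.87, -1.09 and -0.84). The other cores were not particular to genes that fell in shARNT either. RBPJ, not called in shARNT but called lower in shBMAL1 (-0.64), held ACGTG at -140 to -136 in the window of start 2 of 5. That window also held GCGTG, and TGGGAA at -115 to -110 and -72 to -67. LFNG held TGGGAA at -248 to -243 in the window of start 2 of 2. CACGTG, the E-box that CLOCK-BMAL1 binds and that contains ACGTG, was present in 6.34% of all windows and was not found in any window of the 9 members. CACNAG, the N-box bound by HES proteins, was present 3 times in the HES1 window, at -165 to -160 (opposite strand), -132 to -127 and -58 to -53, and at least once in 32.0% of all windows. These matches describe letters in a window and not bound sites.

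Library totals lay between 35269857 and 36099083 counts. The targeted genes moved as labelled. ARNT, the partner of HIF alpha subunits, stood at 48.2 to 52.6 CPM (reads scaled to a common library size, here after TMM correction) in shControl and 9.13 to 9.95 in shARNT, 18.8% of the shControl level by the edgeR fit. ARNTL stood at 15.9 to 16.7 CPM in shControl and 4.12 to 5.54 in shBMAL1, which left 30.9%. The other target moved as well, since ARNT fell to 30.5 to 33.3 CPM in shBMAL1 and ARNTL rose to 22.5 to 25.1 CPM in shARNT. EPAS1, which encodes HIF2α, fell in both depletions (log2 fold change -2.22 in shARNT and -0.57 in shBMAL1), and HIF1A rose in both (1.48 and 1.59). All 7 renal epithelial markers listed for A498 exceeded 1 CPM, but they summed to 8090 to 8140 CPM in shControl, to 6010 to 6480 with the BMAL1 hairpin and to 2240 to 2410 with the ARNT hairpin. VIM carried most of that sum, with means of 5970, 4310 and 812 CPM, and the markers did not fall together, since PAX8 had means of 36 CPM in shControl and 100 in shARNT, and KRT18 566 and 563. Of 19 markers of endothelium, mural cells, fibroblasts and leukocytes, 5 exceeded a mean of 1 CPM. The sum of all 19, mostly COL1A1, was 249 to 261, 47.9 to 53.9 and 48.8 to 58.1 CPM in the same order of groups. COL1A1 had means of 237, 35.7 and 45.4 CPM. Among the mural markers the highest counts in any library were 198 for DES, 161 for RGS5, 151 for MYH11, 82 for PDGFRB and 3 for CNN1. Among the other fibroblast, endothelial and leukocyte markers they were 123 for TEK, 34 for CD14 and 31 for ESAM, while CDH5, CLDN5, LUM and CD3E had at most 3. The part of these shifts in the values below was not tested, and in bulk RNA fewer cells with a transcript cannot be told apart from less of it per cell.

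In control A498 cells the receptor NOTCH2, the ligand JAG1 and the target HES1 were the most abundant of the 10 transcripts. Levels were compared between genes only as CPM per kb of the longest annotated transcript. On that scale the shControl mean was 26.3 ± 3.3 for NOTCH2, 20.1 ± 1 for JAG1 and 12.8 ± 1.24 for HES1 (SD, n = 3). RBPJ followed at 4.26, NOTCH1 at 3.46, LFNG at 2.34 and JAG2 at 1.93, and the lowest were HEYL at 0.329, HEY1 at 0.0363 and NOTCH3 at 0.00695. The libraries of neighbours in this order did not overlap. The lower part of the order depended on the length used, because with the union of all exons RBPJ moved from rank 4 to rank 7, while NOTCH1 and JAG2 moved up and 7 of 10 ranks stayed.

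**Figure D1:**
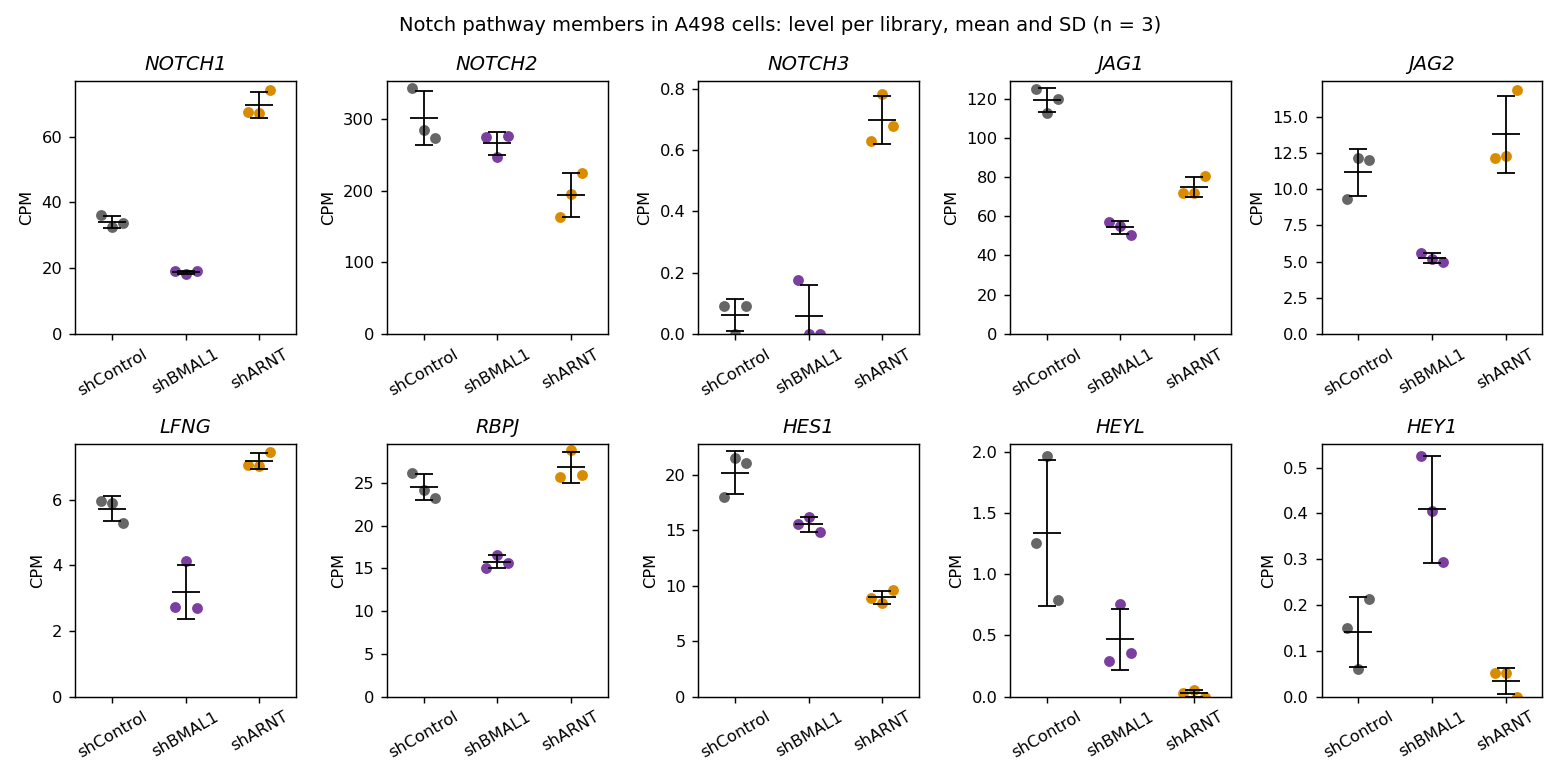
Level of each of the 10 Notch genes in every library, in CPM on TMM-scaled library sizes, each panel with its own axis from 0. Points are libraries, and lines give the mean and SD of 3 libraries of shControl (grey), shBMAL1 (purple) and shARNT (orange). NOTCH1 lies lowest in shBMAL1 (18.1 to 19 CPM) and highest in shARNT (67.1 to 74.1), while HES1 falls from 18 to 21.5 CPM in shControl to 8.42 to 9.57 in shARNT.

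Among the receptors, NOTCH1 was lower with the BMAL1 hairpin and higher with the ARNT hairpin, whereas NOTCH2 was lower with the ARNT hairpin. NOTCH1 (chr9:139388885-139440500 on GRCh37, minus strand), a widely expressed receptor, gave 36.1, 32.5 and 33.6 CPM in the shControl libraries, 19, 18.1 and 19 in shBMAL1, and 67.4, 67.1 and 74.1 in shARNT. No group overlapped another. By edgeR's quasi-likelihood test, with Benjamini-Hochberg adjustment over all genes, the change against shControl on the log2 scale was -0.87 (SE 0.0634, adjusted p = 4.43e-10) in shBMAL1 and 1.03 (SE 0.0582, adjusted p = 1.58e-12) in shARNT.

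NOTCH2 (chr1:120454176-120643366, minus strand), the receptor with most reads per length here, gave 344, 285 and 274 CPM in shControl, 275, 247 and 276 in shBMAL1, and 163, 195 and 224 in shARNT. All shARNT libraries lay below all shControl libraries (log2 fold change -0.63, SE 0.0865, adjusted p = 1.35e-06), whereas shBMAL1 overlapped shControl. The shBMAL1 difference of -0.18 (SE 0.086) passed the threshold with an adjusted p of 0.0849, but without shControl replicate 1 it was -0.07 (adjusted p = 0.497), and the call was also lost with DESeq2 (adjusted p = 0.31). NOTCH2 shares sequence with the partial copy listed as NOTCH2NL, whose mean was 15.9 CPM in shControl, 20.8 in shBMAL1 and 18.5 in shARNT, and how reads were split between them was not stated.

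NOTCH3 (chr19:15269849-15311806, minus strand), a receptor best known from vascular smooth muscle, was close to absent outside shARNT. Its counts were 3, 0 and 3 in shControl and 6, 0 and 0 in shBMAL1, against 25, 31 and 27 in shARNT. All shARNT libraries lay above all others. The summed 83 against 6 counts gave a ratio of 11.6 to shControl after scaling, with an exact 95% interval of 5.09 to 32.4. That interval, like those for HEYL and HEY1 below, covers counting error only and takes every count as independent. Replicates differed by more than counting noise (chi-square per gene 2.12 to 2.46), so these intervals leave out part of the spread. The fitted log2 fold change was 3.46 (SE 0.697, adjusted p = 0.00015). The difference between shBMAL1 and shControl was -0.05 with a 95% interval of -2.33 to 2.24, so no change was detected and changes within that interval were not resolved. Even in shARNT the level stayed at 0.631 to 0.784 CPM. The mural markers MYH11 and PDGFRB had means of 1.44 and 0.168 CPM there, beside 2.72 and 2.2 in shControl. The other mural markers listed, RGS5, DES and CNN1, had means of 3.32, 0.875 and 0 CPM in shARNT, beside 4.52, 5.47 and 0.

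The make-up of the receptor transcripts therefore differed between groups. Of the summed level per length of NOTCH1, NOTCH2 and NOTCH3, NOTCH1 held 11.6% ± 0.802 in shControl, 7.54% ± 0.243 in shBMAL1 and 29.4% ± 2.51 in shARNT (SD, n = 3), with no overlap between groups. NOTCH2 held 88.3%, 92.4% and 70.2%. NOTCH3 did not exceed 0.376% in any library. The summed level itself spanned 27.4 to 33.8 CPM per kb in the shControl libraries, 23.5 to 26.1 in those of shBMAL1 and 21.2 to 27.2 in those of shARNT. These shares are a description and carry no test of their own.

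**Figure D2:**
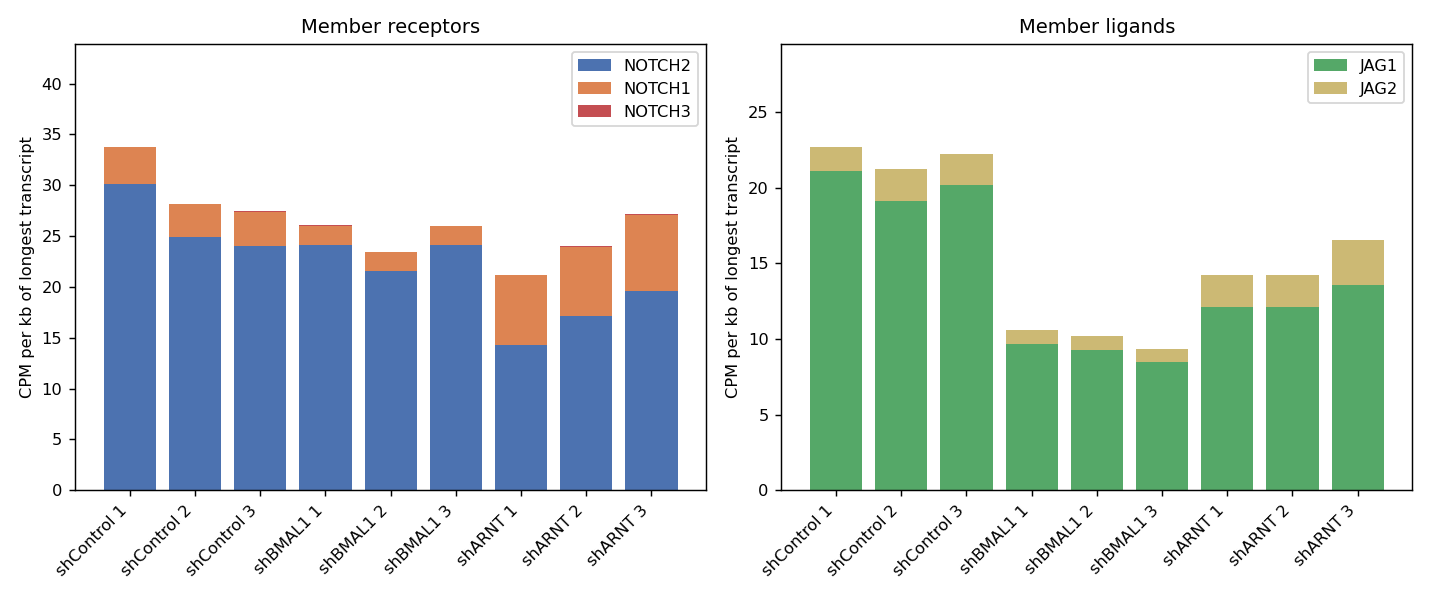
Stacked level of the 3 receptors (left) and the 2 Jagged ligands (right) in each of the 9 libraries, in CPM per kb of the longest transcript. The NOTCH1 band is 27.6% to 32.3% of the bar in the shARNT libraries and 10.8% to 12.4% in shControl, and the ligand bars are 9.36 to 10.6 high in shBMAL1 against 21.2 to 22.7 in shControl.

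Both ligand genes were at less than 50 percent of control with the BMAL1 hairpin, and with the ARNT hairpin JAG1 alone was lower. JAG1 (chr20:10618332-10654647, minus strand), the main Jagged ligand of these cells, gave 125, 113 and 120 CPM in shControl, 57.3, 55.1 and 50.5 in shBMAL1, and 72, 72.1 and 80.6 in shARNT. The groups were fully separated, with log2 fold changes against shControl of -1.13 (SE 0.0579, adjusted p = 1.84e-12) in shBMAL1 and -0.67 (SE 0.0565, adjusted p = 9.73e-10) in shARNT. JAG2 (chr14:105607319-105635161, minus strand), which encodes the second Jagged ligand, gave 9.31, 12.2 and 12 CPM in shControl, 5.59, 5.2 and 4.94 in shBMAL1, and 12.2, 12.3 and 16.9 in shARNT. All shBMAL1 libraries lay below all others (log2 fold change -1.09, SE 0.138, adjusted p = 1.12e-06). The shARNT libraries overlapped shControl, and the rise of 0.30 (SE 0.125, adjusted p = 0.0334) was lost when shControl replicate 1 (0.18, adjusted p = 0.197) or shARNT replicate 3 (0.13, adjusted p = 0.314) was left out. JAG2 supplied 8.81% ± 1.51 of the summed ligand level per length in shControl, 9.03% ± 0.165 in shBMAL1 and 15.8% ± 1.65 in shARNT.

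LFNG (chr7:2552163-2568811, plus strand), the fringe enzyme, gave 5.98, 5.92 and 5.3 CPM in shControl, 2.72, 4.15 and 2.71 in shBMAL1, and 7.07, 7.03 and 7.46 in shARNT. The groups did not overlap, and the direction was opposite in the 2 depletions. On the log2 scale LFNG changed by -0.84 (SE 0.152, adjusted p = 8.46e-05) in shBMAL1. In shARNT the value was 0.33 (SE 0.139, adjusted p = 0.0393), and this call was lost without shControl replicate 3 (0.27, adjusted p = 0.131).

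RBPJ (chr4:26165077-26436753, plus strand), the factor through which cleaved Notch reaches DNA, gave 26.2, 24.2 and 23.2 CPM in shControl, 15.1, 16.6 and 15.6 in shBMAL1, and 25.7, 28.9 and 25.9 in shARNT. Only shBMAL1 stood apart from shControl (log2 fold change -0.64, SE 0.0746, adjusted p = 3.84e-07). The shARNT difference was 0.13 with a 95% interval of -0.02 to 0.28 and an adjusted p of 0.106. It passed the threshold with relative log expression scaling (0.13, adjusted p = 0.0952) and with library size alone (0.36, adjusted p = 0.000114). It also passed when shControl replicate 1 (0.17, adjusted p = 0.0478), shARNT replicate 1 (0.16, adjusted p = 0.0765) or shARNT replicate 3 (0.16, adjusted p = 0.0851) was left out.

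The 3 target genes had their lowest levels in shARNT. HES1 (chr3:193853937-193856521, plus strand), the most abundant HES or HEY gene here, gave 18, 21.5 and 21.1 CPM in shControl, 15.6, 16.2 and 14.8 in shBMAL1, and 8.89, 8.42 and 9.57 in shARNT. The groups were separated, and the order was shControl, shBMAL1, shARNT. The fitted change was -1.17 on the log2 scale (SE 0.0886, adjusted p = 1.78e-10) in shARNT and -0.38 (SE 0.0854, adjusted p = 0.000822) in shBMAL1.

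HEYL (chr1:40089107-40105315, minus strand), a HEY-family repressor, followed the same order at a far lower level. Its counts were 42, 65 and 26 in shControl, 10, 26 and 12 in shBMAL1, and 1, 2 and 0 in shARNT, so that shARNT was separated from both other groups. The highest shBMAL1 library lay just under the lowest shControl library (0.755 against 0.787 CPM). The summed 3 against 133 counts gave a ratio of shARNT to shControl of 0.0188 (exact 95% counting interval 0.00384 to 0.0562). The ratio of shBMAL1 to shControl was 0.349 (interval 0.245 to 0.489). By edgeR the log2 fold changes were -5.55 (SE 0.657, adjusted p = 1.78e-07) in shARNT and -1.51 (SE 0.416, adjusted p = 0.00403) in shBMAL1. The shARNT value was -6.38 without shARNT replicate 2, the library with most HEYL counts in that group.

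HEY1, the other HEY-family repressor, had the opposite sign to HES1 and HEYL in shBMAL1. Its counts were 5, 2 and 7 in shControl, 18, 14 and 10 in shBMAL1, and 2, 2 and 0 in shARNT. The shBMAL1 libraries lay above all others, with a ratio to shControl of 2.9 (exact 95% counting interval 1.55 to 5.75) and, by the fit, 1.51 on the log2 scale (SE 0.558, adjusted p = 0.0256). That call was lost with DESeq2 (1.53, adjusted p = 0.106), and when shControl replicate 2 (1.16, adjusted p = 0.12) or shBMAL1 replicate 1 (1.29, adjusted p = 0.11) was left out. In shARNT the ratio was 0.239 (interval 0.0572 to 0.76) and the log2 fold change -1.96 (SE 0.851, adjusted p = 0.0421), a call that was lost when shControl replicate 3 (-1.56, adjusted p = 0.17) or shARNT replicate 3 (-1.42, adjusted p = 0.149) was left out.

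All 10 genes passed the filter on low counts, but not through the same libraries. NOTCH3 reached 10 counts only in the 3 shARNT libraries, HEY1 only in the 3 shBMAL1 libraries and HEYL in the 6 libraries of shControl and shBMAL1, so these 3 entered the test through the groups in which they were high. Their ratios, separations and calls above, those against shControl included, are therefore a description and not support of their own. The other 7 reached 10 counts in all 9 libraries. Annotated long noncoding RNAs overlap HEYL, JAG1, NOTCH1 and NOTCH2 on the opposite strand and JAG2 on the same strand, those at JAG1 and JAG2 in part of their length, and since the use of strand in counting was not stated, reads from the overlaps cannot be told apart.

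Counted together, a gene being called at an adjusted p under 0.1, shBMAL1 against shControl gave 1 member higher (HEY1), 8 lower and 1 not called (NOTCH3). Over all genes tested in that comparison 63.4% were called, 31.9% as higher and 31.5% as lower. The median log2 fold change of the members was -0.74, beside 0 for all genes, and the median absolute value was 0.86, beside 0.32. In shARNT against shControl 4 members were higher (NOTCH1, NOTCH3, JAG2 and LFNG), 5 were lower (NOTCH2, JAG1, HES1, HEY1 and HEYL) and RBPJ was not called. The background there was 81.8% called, 40.5% higher and 41.3% lower, and the median of the members was -0.25, beside -0.01 for all genes, with median absolute values of 0.85 and 0.66. The number of called members in shARNT was thus near the share of all genes called. The 2 comparisons share the shControl libraries. The calls of NOTCH3, HEY1 and HEYL within these counts are a description, given how these genes passed the filter.

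**Figure D3:**
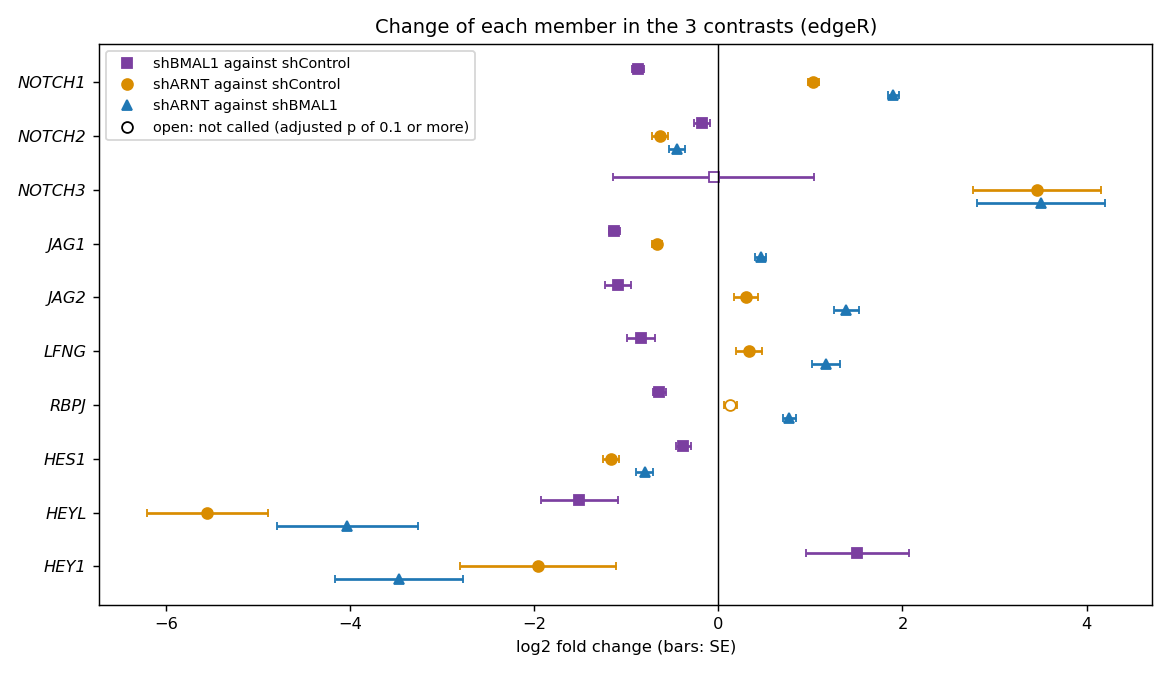
Log2 fold change of each of the 10 genes by the edgeR fit, with bars of 1 SE, for shBMAL1 against shControl (purple squares), shARNT against shControl (orange circles) and shARNT against shBMAL1 (blue triangles). Filled symbols had an adjusted p under 0.1 and open symbols did not, which are NOTCH3 in shBMAL1 (-0.05) and RBPJ in shARNT (0.13). HEYL has the largest fall, -5.55 in shARNT.

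The 2 depletions were also compared with each other directly. All 10 members were called, 6 as higher in shARNT (NOTCH1, NOTCH3, JAG1, JAG2, RBPJ and LFNG) and 4 as lower (NOTCH2, HES1, HEY1 and HEYL). Over all genes tested 81.2% were called, 40.1% as higher and 41.1% as lower, and the median log2 difference was 0.62 for the members, beside -0.01 for all genes, with median absolute values of 1.28 and 0.64. NOTCH1 had the largest difference among the well-expressed members at 1.90 (SE 0.0614, adjusted p = 1.82e-16), followed by JAG2 at 1.39 (SE 0.135, adjusted p = 8.69e-09) and LFNG at 1.17 (SE 0.148, adjusted p = 4.59e-07). For HES1 the difference was -0.80 (SE 0.0898, adjusted p = 8.87e-08). The differences of HEY1, HEYL and NOTCH3 rested on 4 against 42, 3 against 48 and 83 against 6 counts, and these genes had entered the test through the groups in which they were high.

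The wider pathway was taken from a list of 68 further genes, chosen by role with earlier results of these data known. Of these, 56 passed the filter. DLL4, DLK1, CNTN1, MFAP2, RBPJL, DTX1, DTX3, NEURL1, HES2, HES5, HES7 and NRARP did not. In shARNT against shControl 22 of the 56 were higher, 25 lower and 9 not called, with a median log2 fold change of -0.19. In shBMAL1 against shControl 17 were higher, 17 lower and 22 not called, with a median of 0.03. In shARNT against shBMAL1 the counts were 26, 22 and 8, with a median of 0.04. The medians of all genes were -0.01, 0 and -0.01 in the same order, and 81.8%, 63.4% and 81.2% of all genes were called, so the called shares of the list were near those of all genes. MFAP5 had no reads in shARNT, and with it set to a floor of 3 counts over the group the medians of the list were again -0.19 and 0.04.

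Of the other receptors and ligands, 6 were tested. NOTCH4, a receptor known from endothelium, was at 0.961, 0.729 and 0.303 CPM in shControl and 0.0757, 0.0758 and 0.101 in shARNT (log2 fold change -2.93, SE 0.553, adjusted p = 7.31e-05). DLL1, a Delta ligand, was lower in shBMAL1 (1.29, 1.09 and 0.848 CPM in shControl against 0.497, 0.61 and 0.441, log2 fold change -1.06, SE 0.301, adjusted p = 0.00516). DNER, a noncanonical ligand, was higher there, at 3.74, 4.15 and 3.5 CPM against 1.32, 2 and 2.18 (log2 fold change 1.05, SE 0.197, adjusted p = 0.000125). NOTCH4 and DLL1 were chosen for mention after their values were seen, because they are the remaining receptor and the best-known Delta ligand tested. Their means over the 9 libraries were only 0.373 and 0.845 CPM. The NOTCH4 values rested on counts of 32, 24 and 10 in shControl and 3, 3 and 4 in shARNT. No shARNT library reached 10 counts, so NOTCH4 entered the test through the groups in which it was higher.

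All 5 enzymes that add sugars to the receptors were called in shARNT, where 81.8% of all genes were, 1 as higher and 4 as lower. In shBMAL1, where 63.4% of all genes were called, 3 were lower and 2 not called. MFNG, a fringe like LFNG, fell in both. It gave 22.2, 25.7 and 27.8 CPM in shControl, 8.72, 9.23 and 7.94 in shBMAL1 and 6.36, 7.03 and 7.21 in shARNT. Neither depletion overlapped shControl, with log2 fold changes of -1.55 (SE 0.0965, adjusted p = 3.85e-11) in shBMAL1 and -1.88 (SE 0.0976, adjusted p = 3.98e-13) in shARNT.

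All 9 genes of the cleavage machinery were called in shARNT, 3 as higher and 6 as lower, beside 81.8% of all genes, and subunits of γ-secretase moved in opposite directions. PSENEN, the smallest subunit, gave 35.5, 40.3 and 35.1 CPM in shControl and 118, 116 and 121 in shARNT (log2 fold change 1.68, SE 0.055, adjusted p = 2.16e-16), while in shBMAL1 it gave 39, 39 and 41.3 (adjusted p = 0.118). APH1A, the scaffold subunit, gave 194, 219 and 186 CPM in shControl, 78.7, 77.5 and 79.7 in shBMAL1 (-1.34, SE 0.054, adjusted p = 4.73e-14) and 142, 136 and 149 in shARNT. NCSTN, the subunit that receives the substrate, named after its values were seen, gave 514, 525 and 515 CPM in shControl and 245, 261 and 259 in shARNT (-1.02, SE 0.0362, adjusted p = 7.92e-16). In shBMAL1 4 cleavage genes were higher, 3 lower and 2 not called, beside 63.4% of all genes called, and PSEN2, a catalytic presenilin, was among the higher (0.58, SE 0.0729, adjusted p = 9.78e-07). Between the depletions, shARNT exceeded shBMAL1 by 1.57 for PSENEN (adjusted p = 5.49e-16) and by 0.86 for APH1A (adjusted p = 9.02e-12).

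The nuclear coactivators included the Mastermind genes, which hold the active complex on DNA and of which all 3 were higher in shBMAL1, while in shARNT MAML1 and MAML3 were higher and MAML2 lower. In shARNT 5 of 8 coactivators were higher, 2 lower and 1 not called (40.5% and 41.3% of all genes higher and lower), and in shBMAL1 4 were higher and 4 not called (31.9% of all genes higher). MAML3 gave 5.02, 3.55 and 4 CPM in shControl, 7.96, 8.07 and 8.91 in shBMAL1 and 14.4, 14.1 and 12.7 in shARNT, a rise of 0.99 (SE 0.123, adjusted p = 9.56e-07) and 1.71 (SE 0.119, adjusted p = 4.25e-11) on the log2 scale. MAML2 gave 11.9, 10.8 and 10.3 CPM in shControl, 17.1, 13.3 and 15.6 in shBMAL1 and 3.26, 3.03 and 3.2 in shARNT. MAML2 was thus the lowest in shARNT, and its difference between the depletions was -2.28 (SE 0.114, adjusted p = 2.27e-13). MAML2 changed by 0.48 in shBMAL1 (adjusted p = 0.000422) and by -1.79 in shARNT (adjusted p = 1.57e-11). MAML1 was higher in both, by 0.69 in shBMAL1 (SE 0.0732, adjusted p = 1.03e-07) and by 1.06 in shARNT (SE 0.0719, adjusted p = 3.21e-11). Of the acetyltransferases that serve as coactivators, shARNT against shBMAL1 gave 0.89 for KAT2A (SE 0.0661, adjusted p = 1.33e-10) and -1.64 for KAT2B (SE 0.0845, adjusted p = 3.48e-13).

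Among 13 corepressors tested, 9 were higher and 4 lower in shARNT, where 81.8% of all genes were called, and 5 were higher, 5 lower and 3 not called in shBMAL1, where 63.4% were. TLE1, a Groucho corepressor of HES proteins, gave 16.8, 17 and 17.9 CPM in shControl, 32.8, 33.9 and 33.6 in shBMAL1 and 42.2, 43.2 and 43.3 in shARNT. It rose in both (0.96, SE 0.0585, adjusted p = 2.85e-11 and 1.32, SE 0.0575, adjusted p = 2.31e-14), while its relative TLE2 fell in shBMAL1 (-1.12, SE 0.138, adjusted p = 8.01e-07).

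Of 12 genes for trafficking and turnover, 3 were higher, 6 lower and 3 not called in shARNT (81.8% of all genes called), and 3 were higher, 3 lower and 6 not called in shBMAL1 (63.4%). FBXW7, the ubiquitin ligase subunit that marks the Notch intracellular domain for degradation, gave 6.76, 7.32 and 6.45 CPM in shControl and 15.9, 17.7 and 17.7 in shARNT (1.32, SE 0.105, adjusted p = 3.73e-10). NUMBL, related to the Notch inhibitor NUMB, gave 57.1, 56.2 and 52.5 CPM in shControl and 15.5, 13 and 14.9 in shARNT (-1.93, SE 0.0716, adjusted p = 1.61e-15). MIB2, a ligase for Notch ligands, rose in shARNT (1.14, SE 0.0524, adjusted p = 5.3e-14). DTX4, a Deltex ligase, fell in both, with 15.2, 17.3 and 14.1 CPM in shControl, 4.94, 4.91 and 4.26 in shBMAL1 (-1.72, SE 0.115, adjusted p = 1.15e-10), and 4.59, 5.64 and 5.06 in shARNT (-1.61, SE 0.113, adjusted p = 5.18e-11). In shARNT against shBMAL1, MIB2 was higher by 1.53 and FBXW7 by 0.93, while NUMBL differed by -1.88 and the ubiquitin ligases NEDD4 and DTX3L by -1.53 and -1.31, with adjusted p-values from 5.15e-18 (NEDD4) to 4.95e-08 (FBXW7). Of the further targets, 3 were tested. In each depletion 1 was lower (HES4) and 2 were not called (HES6 and HEY2), beside 81.8% of all genes called in shARNT and 63.4% in shBMAL1. HES4 changed by -1.26 in shBMAL1 (SE 0.228, adjusted p = 8.31e-05). In shARNT it changed by -0.43 with overlap (SE 0.21, adjusted p = 0.0676). Its mean was lowest in shBMAL1, at 1.55 CPM beside 2.76 in shARNT and 3.72 in shControl.

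**Figure D4:**
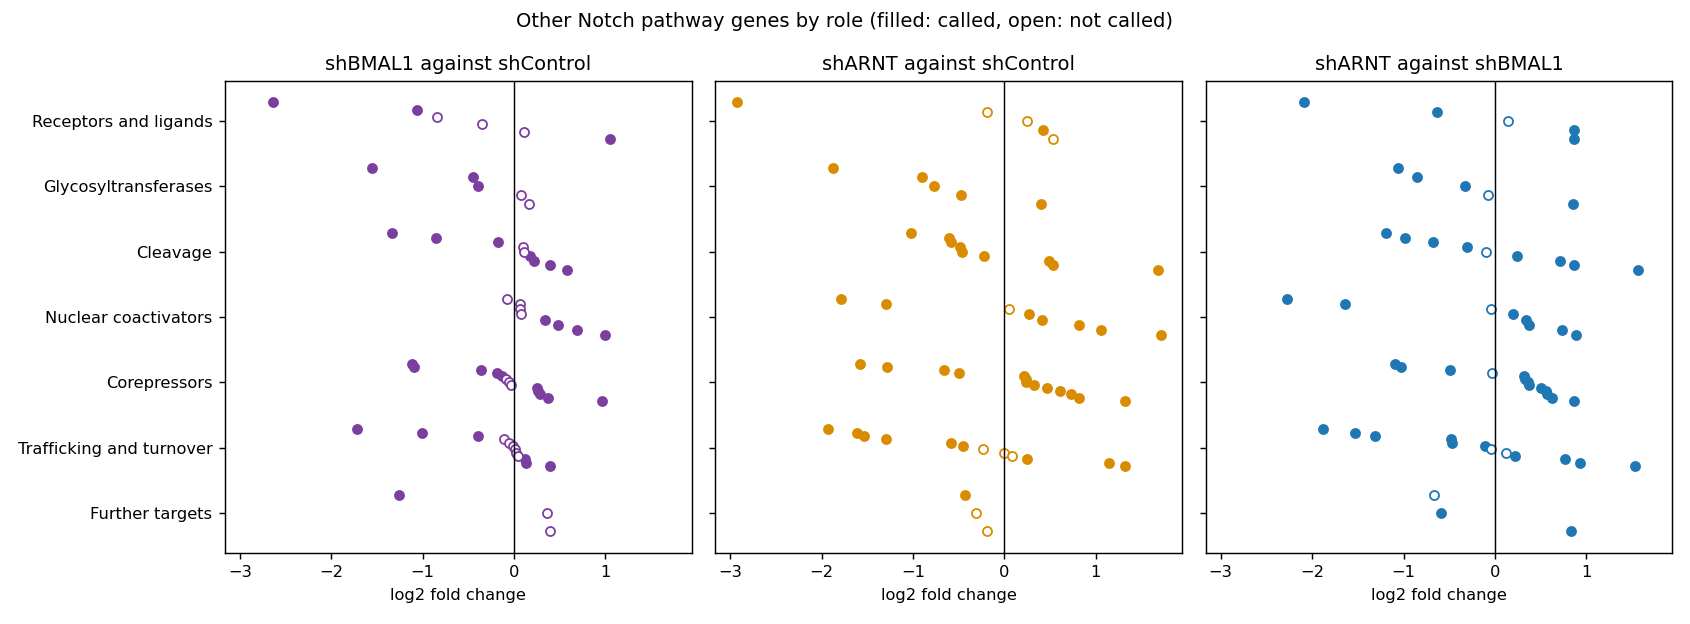
Log2 fold changes of the 56 further Notch pathway genes tested, by role, in the 3 comparisons. Each point is a gene, filled where the adjusted p was under 0.1. MFAP5, a microfibril protein counted here with the ligands, had no reads in shARNT and is left out of the comparisons with that group. Points lie on both sides of 0 in most roles. With MFAP5 counted, 22 genes were called higher and 25 lower in shARNT, and 17 and 17 in shBMAL1, both against shControl.

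Patterns across the 9 libraries were compared by Pearson's r of log2(CPM + 0.1) among genes with a mean of at least 4 CPM, as a description in which all points share the group structure. The genes most like HES1 were PXN (r = 0.996) and LAT (r = 0.995), and 958 of 11197 genes exceeded an r of 0.95 with it. Those most like JAG1 were PDE5A (r = 0.997) and SLC35E1 (r = 0.995), among 118 above 0.95. Those most like NOTCH3 were SMCR7L (r = 0.988) and MPHOSPH6 (r = 0.985), among 72. NOTCH3 itself had a mean of 0.272 CPM, so counting noise enters its r, and the numbers above 0.95 are not compared between the members.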

How the data were processed

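RNA from 9 A498 cultures was sequenced as stranded, paired-end 100-base mRNA libraries on a BGISEQ-500. By the study's methods the authors aligned reads to GRCh37 with SeqMan NGen 17 and exported counts with ArrayStar 17, whereas the submitters' processing notes name STAR, hg38 and DESeq2. The table held no coordinates, and its annotation, use of strand and handling of multiply mapped reads were not stated. The deposited values were expected counts, unnormalized, with 720 to 787 fractional values per library (3.47% to 4.43% of reads). No member had a fractional value. A value of 0.05 stood for no reads and was set to 0. Counts were rounded, and the 27716 rows, of which 45 names were held by more than 1 row, were summed to 27671 genes. There was no row without a name.

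The quasi-likelihood test of edgeR 4.0.16 (R 4.3.3) was fitted on all 9 libraries with group as the only factor, TMM scaling (factors 0.932 to 1.11) and filterByExpr, which left 15551 genes. The threshold was an adjusted p of 0.1, by the method of Benjamini and Hochberg over all genes tested. SEs came from the fold change and its F statistic. CPM used TMM-scaled library sizes. Lengths and coordinates came from GENCODE 44 lifted to GRCh37, and promoters from RefSeq on GRCh38.p14. In counts simulated for shARNT against shControl over 15305 genes, the fit recovered 88% of 100 genes changed 1.5-fold and 96% of 100 changed 2-fold, and in that 1 draw 14% of its calls were of unchanged genes. The changed genes had mean counts of at least 50, and as many were raised as lowered. The draw thus did not cover genes with few counts, or data in which 81.8% of genes are called. Replicates differed by more than counting noise (chi-square per gene 2.12 to 2.46 at mean counts of 10 to 50) and were all kept. Alternatives were DESeq2 1.42.0, other scalings, no filter, halved counts, pairwise fits, a minimum fold change of 1.5, a replicate block, another gene length and leaving out each library.

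Members and gene lists were chosen with earlier results of these data known. Named were all members, the 2 targets, EPAS1 and HIF1A, and, per comparison, the 5 largest rises and falls of the pathway list with a mean of at least 1 CPM and no overlap between groups. A result that this rule names among the pathway genes is not reported here. For HES1, JAG1 and NOTCH3 the 2 genes with the highest r were named.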

Additional observations from a re-analysis of the deposited data

Results flagged for a closer look

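The effects of the 2 hairpins on each member, both taken against shControl, were tested against each other through the direct contrast of shARNT with shBMAL1 in the edgeR fit, and for all 10 the difference passed the threshold. On the log2 scale the difference was 1.90 for NOTCH1, -0.45 for NOTCH2, 3.50 for NOTCH3, 0.46 for JAG1, 1.39 for JAG2, 1.17 for LFNG, 0.77 for RBPJ, -0.80 for HES1, -3.47 for HEY1 and -4.03 for HEYL. Beside these, 81.2% of all genes tested differed between the depletions. NOTCH3, HEY1 and HEYL had entered the test only through groups in which they were high, so their differences are a description and not support of their own. With library size alone in place of TMM, the median difference of all genes moved by 0.19. The NOTCH3 difference was 7.65 without shBMAL1 replicate 1, which held all 6 NOTCH3 counts of its group, and the HEYL difference was -4.86 without shARNT replicate 2. For NOTCH1, JAG2, LFNG and HEY1 the 2 effects against shControl had opposite signs and were each called, and of these 4 genes only NOTCH1 kept both calls whichever library was left out.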

How the results depend on the processing

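The 30 fold changes of the members were recomputed under each alternative, which gave 504 comparisons, of which 470 kept their sign and side of the threshold, 24 lost the call, 6 gained it and 4 changed sign. A gene that did not pass the filter under an alternative gave no value, which was so for HEY1 in every comparison with halved counts, for HEY1 in both comparisons with shControl when only the 6 libraries compared were fitted, and for NOTCH3 in that fit of shBMAL1 against shControl. The 4 sign changes were all NOTCH3 in shBMAL1 against shControl, which was 0.34 without shControl replicate 1, 0.34 without shControl replicate 3, 0.51 without shBMAL1 replicate 2 and 0.51 without shBMAL1 replicate 3, and which was called at -4.20 (adjusted p = 0.0764) without shBMAL1 replicate 1. NOTCH2 in shBMAL1 also lost its call with library size alone (-0.13, adjusted p = 0.2), without shBMAL1 replicate 1 (-0.20, adjusted p = 0.101), without shBMAL1 replicate 2 (-0.13, adjusted p = 0.279) and without shARNT replicate 2 (-0.18, adjusted p = 0.103).

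Against a minimum fold change of 1.5, 4 members were called in shBMAL1 against shControl, all lower. In shARNT against shControl 6 were called, 2 higher and 4 lower. In shARNT against shBMAL1 8 were called, 5 higher and 3 lower. The pathway list then gave 24 calls in shARNT against shControl, 11 in shBMAL1 against shControl and 23 in shARNT against shBMAL1. All 15551 genes tested gave 6966, 2110 and 6831 calls. This test asks for a larger change and so calls fewer genes by construction. With union exon length 7 of 10 members kept their rank in shControl.

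Leaving out each library in turn gave 7 to 10 called members in shARNT against shControl, 8 to 9 in shBMAL1 against shControl and 10 to 10 in shARNT against shBMAL1. In the same order the pathway list gave 46 to 48, 31 to 37 and 46 to 50, and all genes 12438 to 12921, 9279 to 9905 and 12332 to 12830.

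Library size alone moved the median of all genes by 0.24, 0.05 and 0.19 and gave 7828 higher and 5111 lower genes in shARNT against shControl, 5520 and 4366 in shBMAL1 against shControl and 7471 and 5286 in shARNT against shBMAL1, in place of 6305 and 6418, 4956 and 4896, and 6240 and 6390. No called member changed sign under any scaling. The replicate block called 9, 9 and 10 members, 47, 34 and 47 pathway genes and 12684, 9833 and 12591 genes in all. Deviations of libraries with the same number had correlations of -0.16 to 0.24, and those with different numbers -0.21 to 0.31, so the numbers were not taken to pair the samples.

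Depth limits NOTCH3, HEY1 and HEYL, whose counts per library were at most 31, 18 and 65. It also limits the pathway genes NOTCH4, DLL1 and MFAP5, with at most 32, 43 and 26.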
